A study of Mus musculus with 18 samples.

Results

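The mRNAs of Egr3, Btg2 and Sik1 were taken from the mRNA ac4C peak lists of mouse hippocampus by gene name. N4-acetylcytidine (ac4C) is an acetylated form of cytidine, written into RNA by the acetyltransferase NAT10, and acRIP-seq maps it by pulling down RNA fragments with an antibody against it. The 3 mRNAs have 16 of the 24703 listed peaks and are 3 of the 4922 mRNAs with any peak. Egr3 has 4 of these peaks, Btg2 3 and Sik1 9.

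The 5×FAD mice, aged 3 months and of C57BL/6J background, carry a pair of human transgenes with mutations of familial Alzheimer disease. One encodes presenilin-1 and the other the amyloid precursor protein, whose mutations are the Swedish, Florida and London ones and whose expression is driven by the mouse Thy-1 promoter, active mainly in neurons. They were compared with wild-type (WT) mice of the same age without these transgenes. Each genotype had 3 acRIP samples, and the series text counts 3 mice of each. The methods name female mice and also littermates of both sexes, and all animals were perfused with saline before the hippocampus was taken, a bulk tissue in which fewer cells of a type and less RNA per cell cannot be told apart. Peaks were listed per sample, 3921, 3734 and 3881 in 5×FAD replicates 1, 2 and 3, and 4151, 4558 and 4458 in WT replicates 1, 2 and 3. The lists give the fold enrichment (FE) of each peak, by the methods the acRIP signal less the IgG control over the input, and these values were summed for each mRNA. They hold no read counts, so depth is unknown, and FE is relative to input and gives no mRNA abundance. Of 12 markers of hippocampal neurons 8 had a listed peak, as did all 8 of astrocytes, 2 of 8 of microglia, 6 of 8 of oligodendrocytes and 4 of 8 of endothelial cells. By the test used for the members below, 1 neuron marker was called higher in 5×FAD and 3 lower, of 8 tested, against 1 and 4 of 8 for astrocytes, 0 and 2 of 2 for microglia, 2 and 1 of 4 for oligodendrocytes and 1 and 0 of 3 for endothelial cells. Over all mRNAs 32.3% were called higher and 39.6% lower, and the part of the markers in the results was not tested.

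Egr3, Btg2 and Sik1 are activity-induced genes, which neurons transcribe within minutes to hours of synaptic input and calcium entry. Egr3 encodes a zinc finger transcription factor of the early growth response (EGR) family, needed for forms of hippocampal memory in mice. Sik1 encodes a salt-inducible kinase, which phosphorylates the CREB coactivators (CRTC) and class IIa histone deacetylases and so restrains the pathways that induce it. Btg2 encodes a small antiproliferative protein that recruits the CCR4-NOT deadenylase, the complex that shortens poly(A) tails.

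The sequences that the peaks turn on are given from RefSeq's GRCm38.p6 assembly (the build mm10 of the lists), 5′ to 3′ on the mRNA strand. The first is the coding part of the Egr3 peak, chr14:70078037-70078064, plus strand, with the start codon in capitals. The second is the spliced Sik1 mRNA where a pair of listed pieces meet, with the 13 bases of exon 9 in capitals and 17 bases of exon 10 after them. The third is exon 10 of Sik1, chr17:31848959-31849081, minus strand, listed whole in every 5×FAD sample, with the C of its longest run of CNN repeats in capitals. CNN, a cytidine followed by any 2 bases, is a context described for ac4C in human RNA, so the longest runs in the 3′ untranslated region (3′ UTR) peaks of Sik1 (chr17:31845036-31845050, minus strand) and Btg2 (chr1:134076820-134076828, minus strand) follow, with the C of each repeat in capitals. The Btg2 run lies in the peaks of WT replicates 1 and 3 but outside the shorter peak of WT replicate 2, and so outside the bases that all 3 share.
Egr3 start codon: ATGgagccatgtgcggcgtggagtcccc
Sik1 exon 9 to 10: CAGCAGTCTGGAGgttcctcaagaaattct
Sik1 exon 10: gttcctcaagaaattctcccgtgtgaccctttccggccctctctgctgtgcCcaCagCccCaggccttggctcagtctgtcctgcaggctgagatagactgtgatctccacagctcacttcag
Sik1 3′ UTR run: CgaCttCcaCcaCca
Btg2 3′ UTR run: CctCtcCtg

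None of the 3 mRNAs was listed in both genotypes. Each 5×FAD sample had peaks of Egr3 and Sik1, and no WT sample did, while Btg2 had none in 5×FAD and a peak in each WT sample. This all-or-none pattern was common in these lists: of the 4493 mRNAs that at least 2 samples of a genotype listed, 1149 (25.6%) were in every 5×FAD and no WT list, and 1315 (29.3%) were in no 5×FAD and every WT list. By the study's class rule for the lists, Egr3 and Sik1 were AD unique (listed by 2 or 3 5×FAD samples and by fewer than 2 WT samples), as were 34.6% of the 4493 mRNAs. Btg2 was AD absent (the reverse), as were 40.4%. The study also required support for the mRNA from RNA-seq, a condition that was not applied here.

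limma, run on log2(FE + 1) of all 4493 mRNAs with FE set to 0 where no peak was listed, called Egr3 and Sik1 higher and Btg2 lower in 5×FAD (Benjamini-Hochberg adjusted p under 0.05 and a log2 difference of at least 1). Each member entered this fit through 1 genotype, and the other genotype was all 0. Its call therefore restates which lists hold the gene and is no separate support. The same holds below for the call and limma p-value of every gene with no listed peak in 1 genotype. Of all mRNAs, 32.3% were called higher in 5×FAD and 39.6% lower, 72.0% in all, so a call was the rule and not the exception in these lists. A two-sided exact permutation test over the 20 assignments of 3 of 6 samples gave p = 0.1 for each member, the smallest that 3 against 3 samples allow. With 1 genotype all 0 and the other listed in every sample, this outcome was fixed by the listing and is no separate support either. No fold change is given for any member, because the other genotype has no listed peak.

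**Figure D1:**
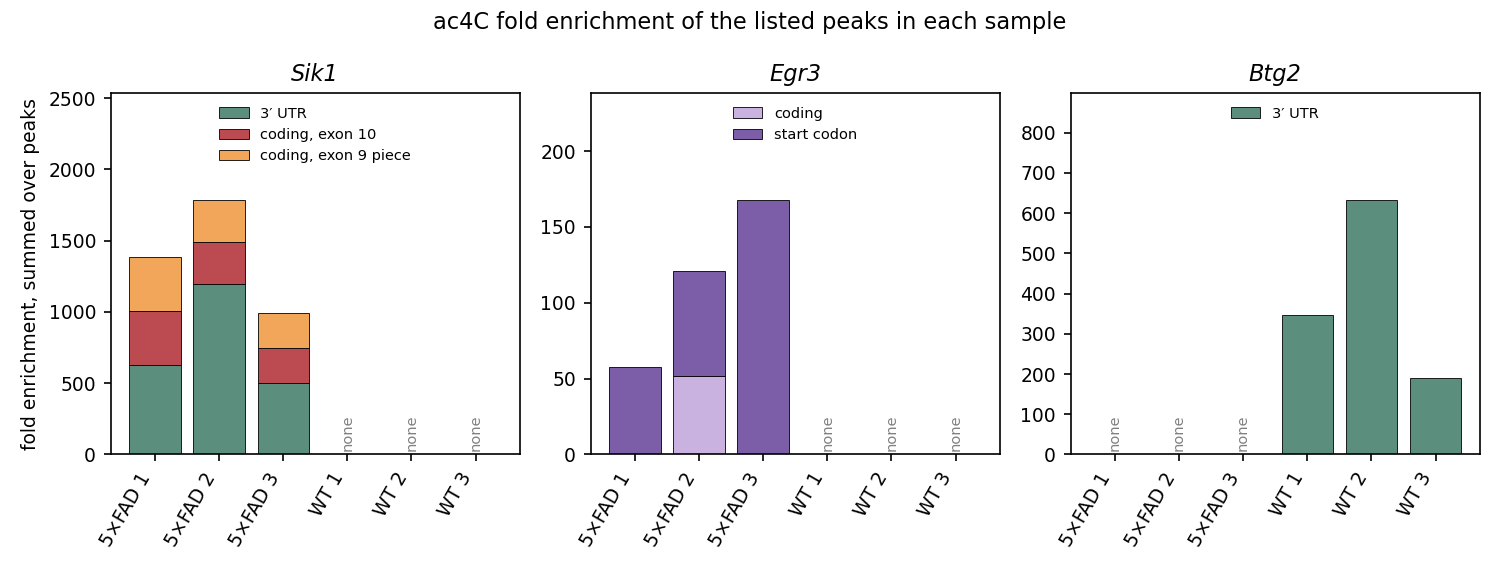
Fold enrichment summed over the listed peaks of Sik1, Egr3 and Btg2 (y axis, own linear scale per gene) in each 5×FAD and WT sample (x axis), with each bar divided by peak. "None" marks a sample without a listed peak, and no gene has bars in both genotypes.

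Egr3 had summed FE of 57.61, 121.12 and 167.6 in 5×FAD replicates 1, 2 and 3, and no listed peak in WT replicates 1, 2 and 3. The mean was 115 ± 55.2 in 5×FAD (SD, n = 3), and every 5×FAD sample was above every WT sample, which the listing alone sets. On the log2(FE + 1) scale the difference was 6.73 (SE 0.41, limma adjusted p = 3.8e-05). With WT at 0 the pseudocount sets its size, which was 10.04 with a pseudocount of 0.1 and 3.54 with 10. The coefficient of variation over the 5×FAD samples was 47.8%, and 82.5% of the 2135 mRNAs listed in all 3 5×FAD samples varied less. The spread among the 5×FAD samples was therefore wide for these lists. It could not reach the WT samples, because any listed FE is above the 0 set for a sample without a peak.

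All 3 5×FAD samples shared one Egr3 peak with identical ends, chr14:70078024-70078064, 41 bp on the plus strand. The peak began with the first base of exon 2 of NM_001289925, an exon of 53 bases that the other RefSeq transcript, NM_018781, skips, and covered 77.4% of it. It held 13 bases of 5′ UTR followed by the start codon of NM_001289925 and the coding bases printed above. NM_018781 starts translation in exon 1 instead, so in that transcript the peak falls in an intron. The FE of this peak was 57.61, 69.07 and 167.6 in 5×FAD replicates 1, 2 and 3, and replicate 3 stood well above the other two. Within their lists these values had ranks of 1106 of 3921 peaks, 1002 of 3734 and 503 of 3881 from the top.

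5×FAD replicate 2 alone had a second Egr3 peak, in the coding sequence at chr14:70078896-70079424, 529 bp from the first base of exon 3, with FE of 52.05. On NM_001289925 only 12 bases of mRNA separate both peaks. Replicate 2 lay between the other samples with this peak, at 121.12, and without it, at 69.07. Exon 3 belongs to both transcripts, and the authors assigned the second peak to NM_018781.

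Sik1 had the highest values of the 3 mRNAs. Its summed FE was 1384.55, 1782.84 and 989.71 in 5×FAD replicates 1, 2 and 3, and it was not listed in WT replicates 1, 2 and 3. The 5×FAD mean was 1386 ± 397 (SD, n = 3), and the genotypes did not overlap, which the listing alone sets. The summed FE placed Sik1 at rank 20 of 2660 mRNAs, 11 of 2575 and 42 of 2654 in the 5×FAD samples. These sums include both pieces of one coding stretch, described below, and ranks with that stretch counted once were not computed. The log2(FE + 1) difference was 10.40 (SE 0.24, limma adjusted p = 8.08e-07), or 13.72 and 7.08 with these other pseudocounts. Its coefficient of variation was 28.6%, with 63.0% of the 2135 mRNAs varying less.

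All 3 5×FAD samples listed the same 3 pieces of Sik1 on chromosome 17, minus strand (NM_010831, 14 exons, 4523 bases). The first piece, chr17:31849519-31849531, is the last 13 bases of exon 9, and its FE was 376.28, 292.59 and 242.6 in 5×FAD replicates 1, 2 and 3. The second, chr17:31848959-31849081, is the whole of exon 10, with FE of 378.38, 296.49 and 245.61. In the spliced mRNA they touch, as the junction sequence above shows, and form one stretch of 136 bases inside the coding sequence. The FE of exon 10 was 1.01 times that of the exon 9 piece in every 5×FAD sample, so the summed FE takes nearly the same value from both pieces of this stretch.

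Counting that stretch once, by its higher piece, gave Sik1 a summed FE of 1008.27, 1490.25 and 747.11 in 5×FAD replicates 1, 2 and 3, and the log2(FE + 1) difference became 10.02 with the same call. Pieces that meet at a junction were frequent in all lists, with 20.7% to 24.9% of a sample's peaks. In 23.7% to 28.2% of the joined stretches the FE of the pieces lay within 1.1-fold, and the median ratio of higher to lower was 1.308 to 1.397 in a sample.

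The third Sik1 peak was in the 3′ UTR in exon 14, chr17:31845020-31845281 in 5×FAD replicates 1 and 2 and 1 base longer in replicate 3, about 1002 bases after the stop codon. Its FE was 629.89, 1193.76 and 501.5 in 5×FAD replicates 1, 2 and 3. It was 1.66 to 4.03 times as high as exon 10 in the same samples, and replicate 2 was the high sample here but not in the coding stretch. About 2090 bases of mRNA lie between this peak and the coding stretch. No other RefSeq gene overlaps the peaks of Sik1, Egr3 or Btg2 on either strand.

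**Figure D2:**
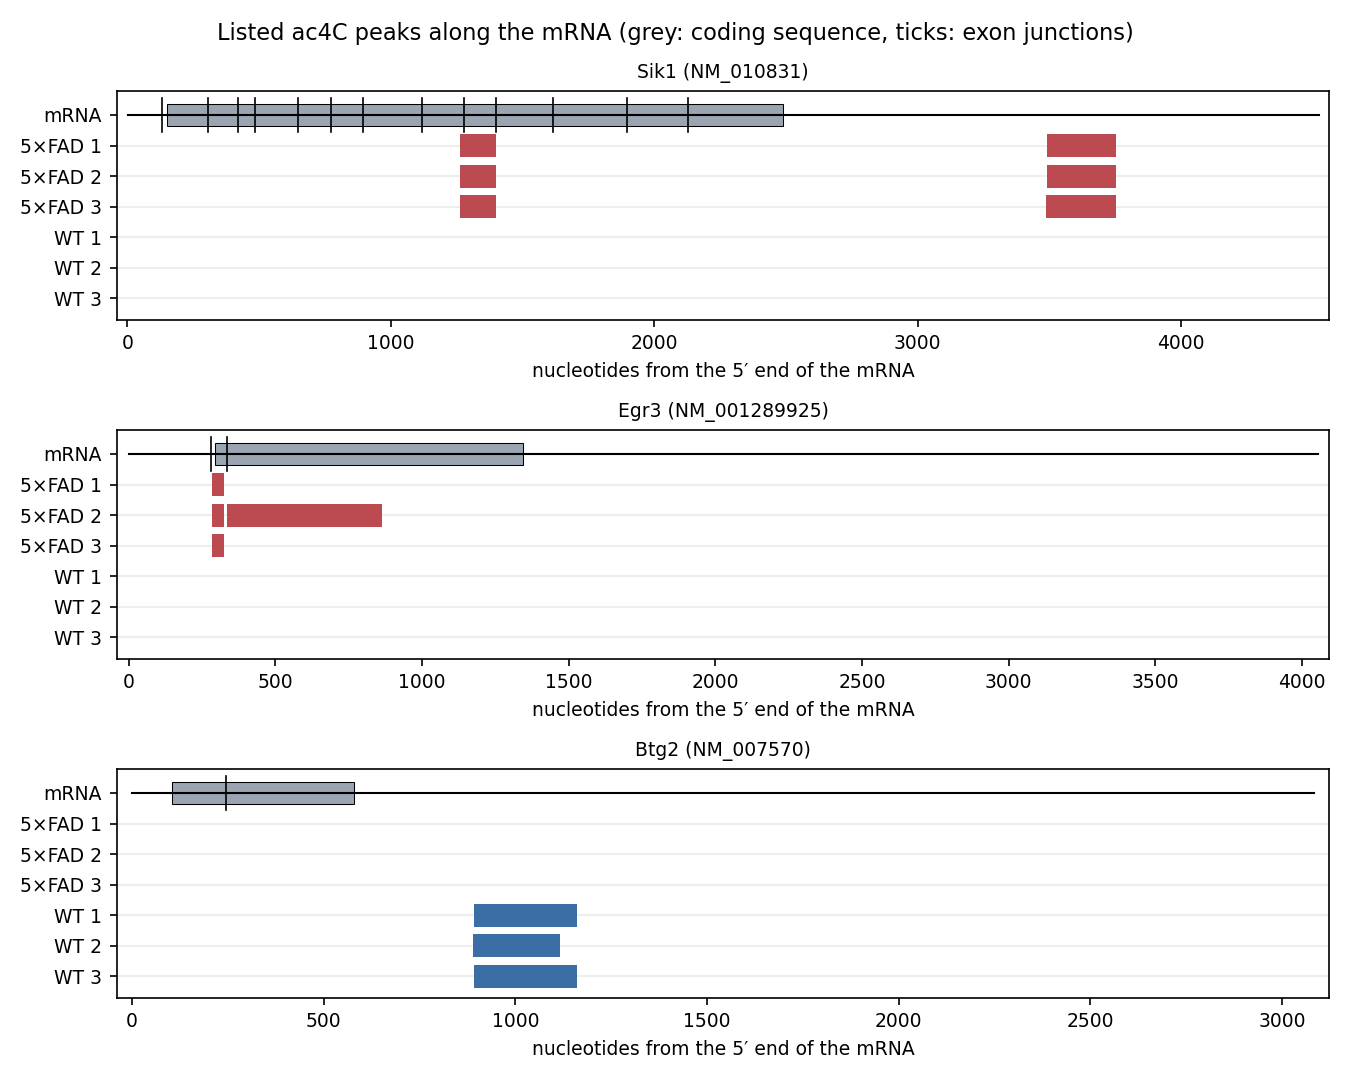
Listed peaks along the Sik1, Egr3 and Btg2 mRNAs (x axis, nucleotides from the 5′ end), 1 row per sample, with 5×FAD in red above WT in blue. The top row of each panel shows the coding sequence as a grey box with exon junctions as ticks. Peaks of the samples of a genotype overlap, except the Egr3 coding peak, which 5×FAD replicate 2 alone has. The Btg2 peak of WT replicate 2 is shorter than the others, and the other genotype has no peak of the gene.

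Btg2 ran the other way. It had no listed peak in 5×FAD replicates 1, 2 and 3, and FE of 345.89, 631.92 and 189.71 in WT replicates 1, 2 and 3. The WT mean was 389 ± 224 (SD, n = 3), and all 3 WT samples were above all 5×FAD samples, which the listing alone sets. The log2(FE + 1) difference was -8.44 (SE 0.46, limma adjusted p = 2.2e-05), or -11.76 and -5.16 with pseudocounts of 0.1 and 10. The highest WT sample had 3.33 times the lowest, and the coefficient of variation of 57.6% was above that of 90.4% of the 2344 mRNAs listed in all 3 WT samples, whose median was 17.9%. Btg2 held ranks of 287 of 2750 mRNAs, 138 of 2938 and 584 of 2882 in the WT samples.

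The Btg2 peak was a single region of the 3′ UTR in exon 2, minus strand (NM_007570, 2 exons, 3083 bases). It was chr1:134076789-134077057 in WT replicates 1 and 3, 269 bp each, and chr1:134076833-134077058 in WT replicate 2, 226 bp. The 3 peaks shared 225 bases and began 311 or 312 bases after the stop codon. The shortest peak was the one with the highest FE.

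**Figure D3:**
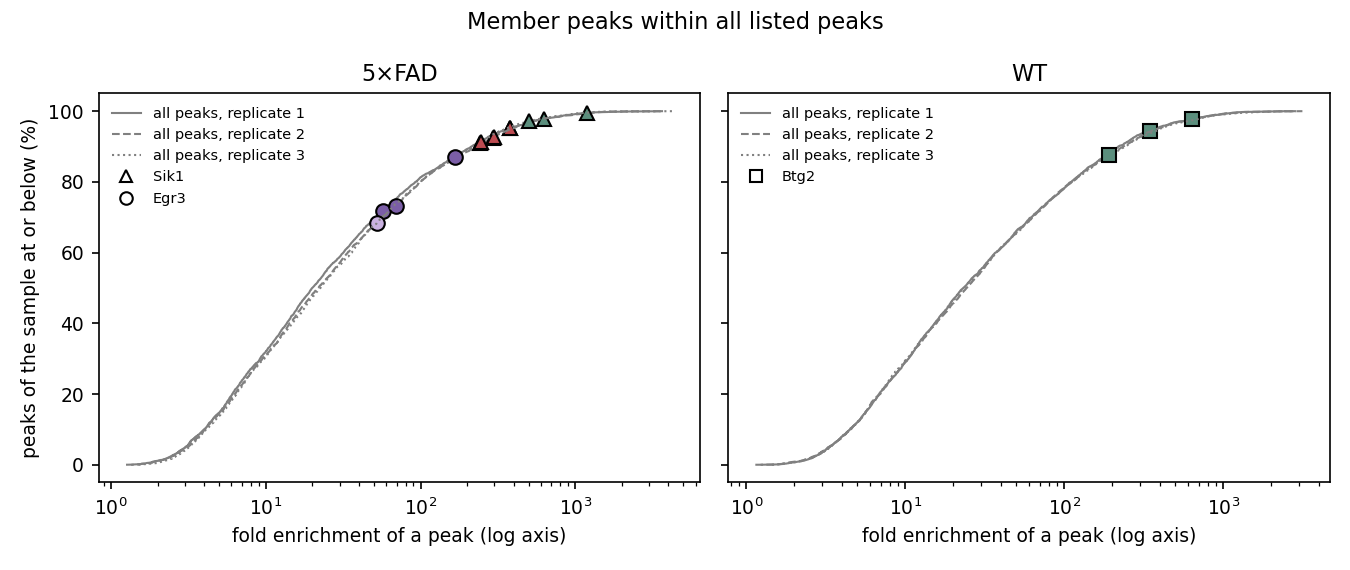
Share of a sample's peaks at or below a given FE (y axis, percent, against FE on a log axis), 5×FAD left and WT right, with 1 grey line per replicate and the member peaks as symbols coloured as in the plot of summed FE. The Sik1 3′ UTR peak of 5×FAD replicate 2 lies above 99.4% of its list, and the Egr3 coding peak of 5×FAD replicate 2 above 68.3%.

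All 16 peaks had the score 3100, which the peak caller derives from its p-value, a level that 54.4% to 56.4% of the peaks of a sample reach or pass. Their FDR was 30.34%, 26.47% and 22.11% in 5×FAD replicates 1, 2 and 3, and 20.15%, 22.40% and 21.44% in WT replicates 1, 2 and 3, the same as for 53.8% to 55.8% of all peaks of each list. Score and FDR therefore do not rank the member peaks among themselves, and FE does.

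The peak numbers that the caller gave run in genome order in every list and skip the peaks that are not listed, which allows a look at the genotype without a listed peak. Around Egr3, the listed peaks on either side of the gene have consecutive numbers in WT replicates 2 and 3, across 397 kb in each, so if unlisted peaks are numbered in the same order no called peak at Egr3 was left off these lists. In WT replicate 1, 9 numbers are missing across 621 kb. Around Sik1, 2, 1 and 1 numbers are missing in WT replicates 1, 2 and 3, across 707, 696 and 696 kb. Around Btg2, 2, 3 and 11 are missing in 5×FAD replicates 1, 2 and 3, across 290, 292 and 609 kb. For Sik1 and Btg2 the missing numbers could belong to the gene or to its neighbours.

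The 6 regions differed in base composition. Cytidine made up 39.0% of the Egr3 start codon region, 35.5% of the Egr3 coding region, 35.8% of Sik1 exon 10 and 31.2% of the Sik1 3′ UTR region, but 23.1% of the 13-base Sik1 piece and 23.7% of the Btg2 region. Of the central windows of the same length cut from all regions on the strand of their gene, 85.9%, 91.9%, 86.6% and 74.2% had less C than the first 4 of these, against 30.4% and 32.4% for the last 2. The longest CNN run, searched on the mRNA strand in all 3 frames, had 5 repeats in the Sik1 3′ UTR region, the run printed above, and 39.2% of 2619 windows of that length had a run as long. It had 4 repeats in Sik1 exon 10 (49.4% of 5390 windows), 3 in the Egr3 start codon region (46.4% of 7963), 4 in the Egr3 coding region (86.6% of 419), 2 in the 13-base piece (43.4% of 8993) and 3 in the Btg2 region (94.2% of 2534). Runs of this length were thus common among all listed regions, and a run marks no ac4C site.

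Egr3 was the only member of its family list with a listed peak. The other EGR transcription factors Egr1, Egr2 and Egr4, and the NAB corepressors Nab1 and Nab2 that bind EGR proteins, had no listed peak in any of the 6 samples. The lists hold only mRNAs with a peak, so the share of all expressed mRNAs without one is not given. Counts of genes without a peak, here and below, are therefore a description only.

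The BTG and TOB list holds 21 genes, the BTG/TOB proteins, the CCR4-NOT and PAN2-PAN3 deadenylases and Prmt1, a methyltransferase that BTG proteins bind. 14 of them had no peak, and of the 7 tested, 1 was called higher and 3 lower in 5×FAD, so that 57.1% of those tested were called, against 72.0% of all mRNAs. Their median log2 difference was -5.26, against -1.21 over all mRNAs. This median is the value of Cnot6l, which was listed in 2 WT samples alone and was not called, and Btg2 itself is among the 7. Btg1, the closest relative of Btg2, was also listed in WT alone, with no peak in 5×FAD and FE of 20.02, 93.73 and 134.57 in WT replicates 1, 2 and 3 (limma adjusted p = 8.05e-04). Pan2, the catalytic deadenylase of the PAN2-PAN3 complex, had no peak in 5×FAD and FE of 258.66, 246.17 and 222.41 in WT replicates 1, 2 and 3 (limma adjusted p = 2.64e-07). Cnot8, a catalytic subunit of CCR4-NOT, was called the other way, with FE of 460, 624 and 149 in 5×FAD replicates 1, 2 and 3 and none in WT (limma adjusted p = 5.58e-05). The 3 called lower, Btg2 included, had no peak in 5×FAD and one in each WT list, and the 1 called higher the reverse. Their calls and limma p-values therefore restate the listing, as for the members.

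The other 3 tested genes of that list were not called. Cnot1, the CCR4-NOT scaffold, had FE of 53.67, 30.30 and 29.28 in 5×FAD replicates 1, 2 and 3 and 37.71, 43.66 and 40.92 in WT replicates 1, 2 and 3, and these ranges overlap (limma adjusted p = 0.595). The deadenylase Cnot6l had no peak in 5×FAD or WT replicate 1 and FE of 248 and 226 in WT replicates 2 and 3 (limma adjusted p = 0.0939). Cnot10, a further subunit, had 460 in 5×FAD replicate 2 alone and 15.70, 18.60 and 12.67 in WT replicates 1, 2 and 3 (limma adjusted p = 0.717).

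The SIK list holds 26 genes, the 3 SIK kinases, kinases above them, CREB with its coactivators, and class IIa histone deacetylases with their MEF2 partners. Of these, 21 were tested, with 6 called higher and 10 lower in 5×FAD and a median log2 difference of -3.11, so that 76.2% of those tested were called, against 72.0% of all mRNAs. The SIK kinases themselves did not go together. Sik3 had FE of 4.20, 4.02 and 2.93 in 5×FAD replicates 1, 2 and 3 and 402, 457 and 452 in WT replicates 1, 2 and 3, a log2(FE + 1) difference of -6.55 (SE 0.15, limma adjusted p = 8.56e-07). Sik2 had 5.83 in 5×FAD replicate 1 alone, and 578 and 572 in WT replicates 1 and 3 with no peak in WT replicate 2, and was not called (limma adjusted p = 0.146). Sik1 was thus the SIK kinase listed in 5×FAD alone, while Sik3 was listed in all 6 samples with every WT sample above every 5×FAD sample.

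Among the kinases above SIK, protein kinase A subunits were called in both directions. Prkar2b, a regulatory subunit, had FE of 944, 1275 and 1432 in 5×FAD replicates 1, 2 and 3 and 1.92 in WT replicate 3 alone, and was called higher (limma adjusted p = 1.74e-05), as was the catalytic subunit Prkacb with 9.01, 10.68 and 10.29 in 5×FAD and no peak in WT. Prkaca, the other catalytic subunit, and Prkar1a, another regulatory one, had no peak in 5×FAD and were called lower, with 40.55 to 54.90 and 57.09 to 80.22 in WT. The calmodulin kinase Camk1 was called lower (no peak in 5×FAD, 127 to 176 in WT) and its activator Camkk1 higher (58.10 to 62.43 in 5×FAD, at most 4.56 in WT). Camkk2 overlapped between genotypes and was not called (limma adjusted p = 0.826).

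CREB and its partners were also divided. Creb1, the transcription factor whose coactivators SIK kinases phosphorylate, had no peak in 5×FAD and FE of 248, 248 and 261 in WT replicates 1, 2 and 3 (limma adjusted p = 2.64e-07), and the acetyltransferase Ep300 was called lower as well (no peak in 5×FAD, 16.99 to 26.37 in WT). Its paralog Crebbp (40.46 to 148 in 5×FAD) and the CREB relative Atf1 (170 to 217 in 5×FAD) were called higher, with no peak in WT. Of the class IIa deacetylases, Hdac7 and Hdac9 had no peak in 5×FAD and were called lower, with 157 to 188 and 28.57 to 39.15 in WT. Hdac4 (limma adjusted p = 0.248) and Hdac5 (limma adjusted p = 0.644) were not called, both listed in 5×FAD replicates 1 and 2, and Hdac4 in 1 and Hdac5 in 3 WT samples. Of the MEF2 transcription factors that these deacetylases repress, Mef2a (no peak in 5×FAD, 201 to 242 in WT) and Mef2c (9.39 to 13.06 in 5×FAD, 31.18 to 327 in WT) were called lower, and Mef2d had 114 to 171 in 5×FAD and 85.05 to 95.76 in WT, a log2 difference of 0.67 below the threshold of 1.

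Of 70 activity-induced genes, 46 had no listed peak, a count with no share over all expressed mRNAs to set beside it, and 3 had one in at most 1 sample of either genotype. The other 21 were tested, with 9 called higher and 9 lower in 5×FAD and a median log2 difference of -0.93. The share called was 85.7%, against 72.0% of all mRNAs, and the members fell on both sides, Egr3 and Sik1 with the 9 higher and Btg2 with the 9 lower.

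Of 8 well-known immediate early genes, 4 had no listed peak in any sample, 2 were listed in at most 1 sample of a genotype, and Arc and Nr4a1 were tested. Fos, Fosb, Jun and Egr1, transcription factors of the first wave, were those without a peak. Junb was listed in 5×FAD replicate 2 with FE of 3.88 and in WT replicate 1 with 568, and Npas4, a neuron-specific transcription factor, in 5×FAD replicate 2 with 10.79. Arc, the synaptic scaffold of the activity response, had 6.30, 5.77 and 15.53 in 5×FAD replicates 1, 2 and 3 and 353, 172 and 224 in WT replicates 1, 2 and 3, a log2(FE + 1) difference of -4.68 (SE 0.47, limma adjusted p = 3.12e-04). The nuclear receptor Nr4a1 had no peak in 5×FAD and 16.61, 19.23 and 9.77 in WT replicates 1, 2 and 3 (limma adjusted p = 5.15e-05).

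Of the activity-induced genes that 2 or 3 5×FAD samples listed, Sik1 had the highest and Egr3 the next highest mean FE in 5×FAD, with 1386 and 115. After them came Sertad1, a cell cycle regulator (84.3 ± 12.6), Mbnl2, a splicing factor (79.4 ± 20.3), and Ptgs2, the inducible cyclooxygenase (60.5 ± 16.9), each with no peak in WT and called higher. Per1, a clock gene, was next with no peak, 64.92 and 107 in 5×FAD replicates 1, 2 and 3, and 6.67, 7.49 and no peak in WT replicates 1, 2 and 3, and was not called (limma adjusted p = 0.359). In WT, Btg2 was the third of these genes by mean FE. Above it were Pim1, a serine/threonine kinase, with 8.34 ± 0.67 in 5×FAD and 926 ± 65.4 in WT, and Srf, a transcription factor for immediate early genes, with FE of 6.85 in 5×FAD replicate 2 alone and 653 ± 93.2 in WT. Below it were Elk1, the partner of Srf, Arc, and the nuclear receptor Nr4a3, with WT means of 341, 250 and 63.4, and all 5 were called lower in 5×FAD. Elk1 need not itself be induced by activity, and it is counted among the 9 genes of the list called lower.

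**Figure D4:**
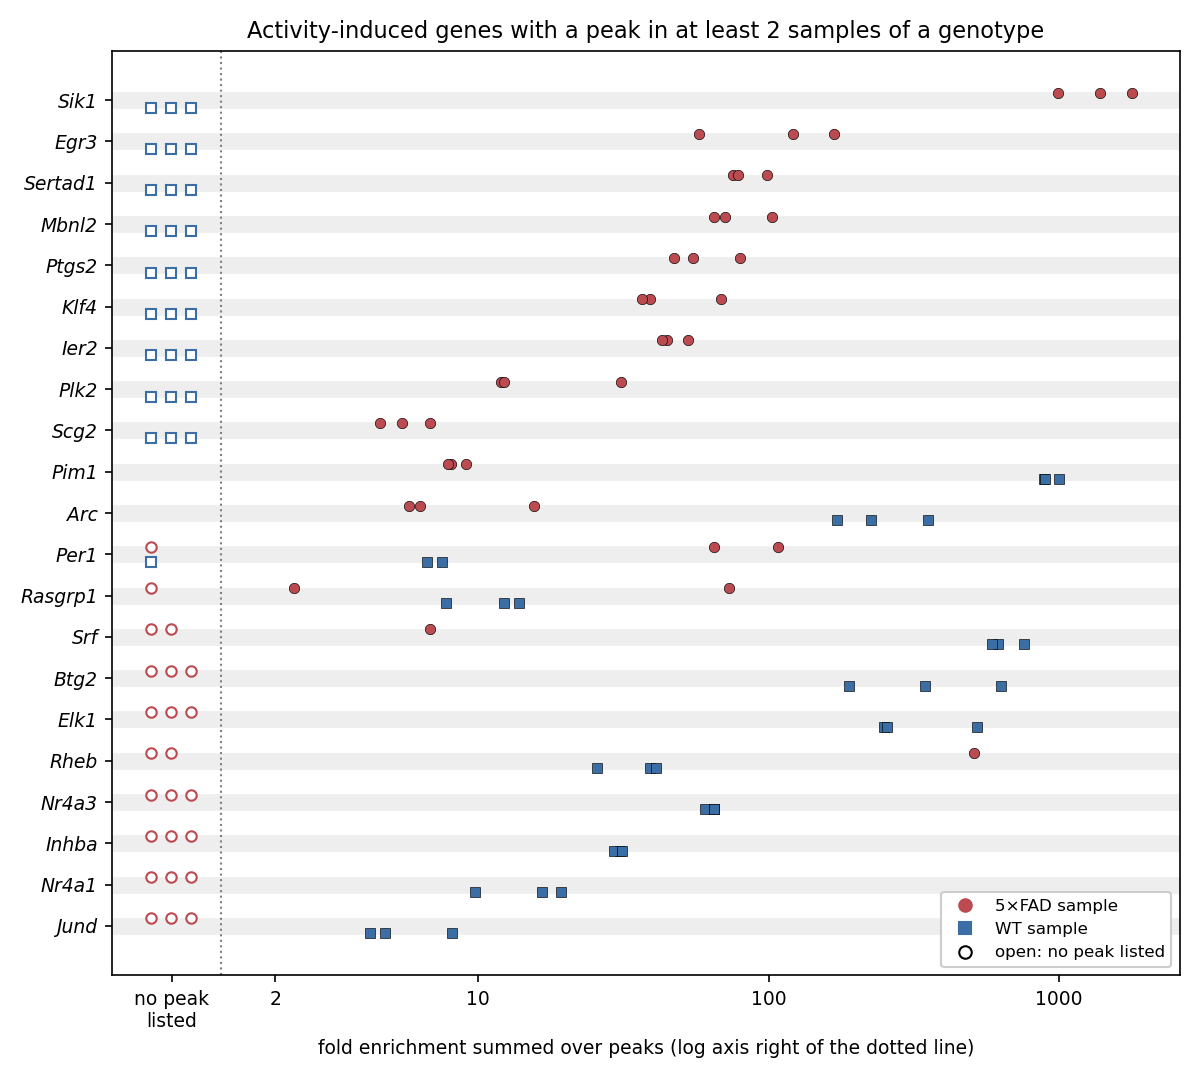
Summed FE (x axis, log scale right of the dotted line) of the 21 tested activity-induced genes, 1 row per gene, with 5×FAD samples as red circles above WT samples as blue squares and open symbols for samples without a listed peak. The upper 9 genes, Sik1 and Egr3 among them, have filled symbols in 5×FAD only, and Btg2 is among the 6 genes with filled symbols in WT only.

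The mRNAs with the most similar values over the 6 samples, by Euclidean distance of log2(FE + 1) among 4492 others, were Chmp1a (0.45), Tbp (0.47) and Vmn2r95 (0.47) for Egr3. Chmp1a, for example, had FE of 64.12, 90.35 and 173 in 5×FAD replicates 1, 2 and 3 and was not listed in WT, the same order over the replicates as Egr3. For Sik1 they were Cdc5l (0.72), Arl13b (0.74) and Zbtb32 (0.74), all listed in 5×FAD alone. For Btg2 they were Elk1 (0.70), Ptchd2 (0.77) and Ube2j1 (0.82), all listed in WT alone. Elk1, which is also on the activity-induced list, had FE of 248, 519 and 256 in WT replicates 1, 2 and 3, and like Btg2 it was highest in WT replicate 2. All these mRNAs were picked by their values in the same 6 samples. Their shared listing and replicate order are what the choice selects for, and a link to the members was not tested.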

How the data were processed

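The 6 acRIP peak lists were used, and the 12 input and IgG-IP samples were not analysed here on their own. According to the methods and the submitters' processing notes, the authors trimmed reads with cutadapt 1.9.3, aligned them to mm10 with HISAT2 2.04, called peaks per sample with MACS against input, removed those overlapping IgG peaks and kept those on exons of protein-coding genes. The FE ratio, the score and the FDR in percent are the authors' values, as deposited. FE was neither recomputed nor scaled between samples. Every FDR is above 20%, so the lists were not filtered at the methods' threshold by this column. Numbers that a spreadsheet had turned into dates were decoded, 0, 0 and 2 in 5×FAD replicates 1, 2 and 3 and 2, 4 and 3 in WT replicates 1, 2 and 3. Depth is unknown.

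Positions were converted to 1-based and placed on RefSeq transcripts of GRCm38.p6, with sequences read from its genome (pysam 0.24.0). Peaks overlapping by at least 1 bp were 1 region. mRNAs listed by at least 2 samples of a genotype were fitted with limma 3.58.1 (R 4.3.3), pseudocount 1. This step was tested on data simulated from the 1121 mRNAs of both genotypes. No simulated mRNA had a genotype without a peak, so that test does not cover the members. Members were also compared by exact permutation. The limma p-values measure the spread between these samples, and the permutation p of each member is set by the listing. For each member, and for each other gene that 1 genotype does not list, that genotype is all 0 and adds no spread of its own. The limma SE and p-value of such a gene therefore rest on the samples of the other genotype and on the variance shared over all mRNAs. They may understate the error. The named genes are the members, the EGR, BTG and SIK list genes that at least 2 samples of a genotype listed, the 6 activity-induced genes with the highest mean FE per genotype, 8 well-known immediate early genes, and the 3 nearest mRNAs per member. The members and gene lists were chosen with earlier results of these data known. All 160 list genes have a RefSeq symbol, and 162 mRNAs without a strand there were left out of the composition windows.

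Alternatives were other pseudocounts, the highest or mean FE, scaling, filters on FE, another variance model, a replicate block, leaving out each sample, mRNAs of both genotypes, a peak in all 3 samples, other overlap rules and, added after seeing the data, joined pieces.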

Additional observations from a re-analysis of the deposited data

How the results depend on the processing

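Egr3, Btg2 and Sik1 kept their direction and their limma call under all 17 alternatives in which they were fitted, with adjusted p of at most 9.13e-04 for Egr3, 6.81e-04 for Btg2 and 2.46e-04 for Sik1. With 1 genotype at FE 0 in each of these, no alternative could reverse the direction, so its stability is no separate support. The size of the log2 difference followed the pseudocount, between 3.54 and 10.04 for Egr3, -11.76 and -5.16 for Btg2 and 7.08 and 13.72 for Sik1, since 1 genotype has FE 0. Leaving out each sample in turn gave 3285 to 3375 called mRNAs of 4223 to 4301 tested. The share called was 77.0% to 78.8%, above the 72.0% with all samples (3233 of 4493), on a different set of tested mRNAs. Exact permutation p was 0.1 to 0.2 for Egr3 and Btg2 and 0.1 for Sik1, in designs too small to pass a threshold of 0.05. Among the 1121 mRNAs of both genotypes alone, 595 were called, 233 higher and 362 lower in 5×FAD, a smaller set by construction that holds no member. The replicate numbers did not pair the samples (correlations of -0.08, 0.09 and 0.02 between same-numbered samples), and with a replicate block 3197 mRNAs were called, 1431 higher and 1766 lower, the 3 members included. No region was shared by both genotypes under any overlap rule, with 6 to 8 regions in all, as follows from no member having peaks in both genotypes. Without read counts, a sample with no listed peak cannot be told apart from one with a peak below the caller's threshold.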
